A study of Mus musculus with 4 samples.

Results

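The H3K4me3 landscape of control mouse embryonic stem cells was described from 1 of the 4 chromatin immunoprecipitation sequencing (ChIP-seq) libraries in the series, the library of cells that carried a scrambled short hairpin RNA (shRNA). The members were the promoters of 22367 protein-coding genes of the GENCODE vM1 annotation on mm9, all of which were counted in this library. A promoter was taken as the 2 kb centred on the transcription start site (TSS) of the gene record, and its level as the number of unique read positions in that window, scaled to the library total as RPM (reads per 1000000 reads kept). The cells were E14TG2a.4, a mouse embryonic stem cell line cultured without feeder cells in the presence of LIF, the cytokine that keeps such cells undifferentiated. They had been transduced with a PLKO.1 lentivirus encoding the scrambled hairpin and selected with puromycin, so they serve as the control of a Jarid1b (Kdm5b) knockdown and are themselves virus-transduced, drug-selected cells of 1 line. The chromatin was precipitated with the rabbit monoclonal antibody C42D8 against histone H3 trimethylated at lysine 4. The other 3 libraries, 2 of Jarid1b itself and 1 of H3K4me3 after Jarid1b shRNA, were not analysed here.

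H3K4me3 is placed on nucleosomes next to active or poised transcription start sites by the SET1 and MLL methyltransferases and removed by KDM5 demethylases such as Jarid1b. In mammals it is found mostly at CpG islands, whose unmethylated CG dinucleotides are bound by CXXC-domain proteins of the methyltransferase complexes. In embryonic stem cells many silent developmental genes carry H3K4me3 together with the Polycomb mark H3K27me3, the state known as bivalent. RNA, H3K27me3 and DNA methylation were not measured in this library, so a level of H3K4me3 is given here as that and not as expression.

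The file held 7530697 aligned reads of 34 bases, of which 5158330 remained after 1 read was kept per strand and 5′ position on chromosomes 1 to 19, X and Y. There was 1 library of this kind, so no value has a replicate and no difference between samples was tested. Every interval is at 95% confidence. Those of levels and sides cover the counting error of reads only, and those of shares and medians are over promoters. None covers variation between libraries. Without molecular identifiers the reads cannot be taken as independent molecules, which the intervals of levels and sides assume. In a bulk library, fewer cells with the mark and less mark per cell cannot be told apart. A promoter was called enriched when its reads exceeded the larger of the genome rate (4.03 reads per window, or 0.782 RPM) and the local rate in the 10 kb beyond each side of the window, by a one-sided exact Poisson test with Benjamini-Hochberg adjustment over all 22367 windows and a threshold of 0.05. A promoter with 0 reads had an upper limit of 0.582 RPM, the level of 3 reads. In 20934 windows at least 50% of the 34-base words occur once in the genome, and these are called mostly unique below. The labelled cell type was checked against marker promoters. Of pluripotency genes, 10 of 12 core and 12 of 16 naive ones were enriched. Of other tissues, 1 of 23 blood and liver, 5 of 20 muscle, 13 of 133 skin and 9 of 22 fibroblast genes were. Of members not enriched, 2 of 2 core, 3 of 4 naive and 4 of 13 fibroblast genes were enriched at another annotated start. So were 3 of 120 skin, 0 of 15 muscle and 0 of 22 blood and liver genes. Over all promoters 60% were enriched, and of neural regulators 65.2%. Median CG dinucleotides per window were 68 and 79.5 in the pluripotency lists and 16 to 44 in those of other tissues. The check therefore cannot separate cell type from CG content.

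The promoters on which the description turns differed widely in CG content, and the 200 bases before the TSS of 8 of them are shown here so that their H3K4me3 can be read beside their sequence. They were read from the NCBIM37 genome, the assembly behind mm9, run 5′ to 3′ in the direction of transcription, contain no annotated exon, and have each CG dinucleotide in capitals. Rps12 (chr10:23507016-23507215, minus strand) and Sox2 (chr3:34548727-34548926, plus strand) are marked promoters with many CG, Kdm5b (chr1:136456548-136456747, plus strand) is the gene the study targeted in its other cells, and Pou5f1 (chr17:35642782-35642981, plus strand) and Nanog (chr6:122657307-122657506, plus strand) are strongly marked promoters with few CG. Hprt (chrX:50341114-50341313, plus strand) is a CG-dense promoter with 0 reads, and Afp (chr5:90919540-90919739, plus strand) and Olfr1014 (chr2:85616543-85616742, plus strand) are CG-poor promoters with 0 reads.
Rps12: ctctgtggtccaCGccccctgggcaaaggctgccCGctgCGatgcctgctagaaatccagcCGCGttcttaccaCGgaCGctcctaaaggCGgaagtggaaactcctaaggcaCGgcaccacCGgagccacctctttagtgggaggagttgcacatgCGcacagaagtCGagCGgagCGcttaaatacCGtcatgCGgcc
Sox2: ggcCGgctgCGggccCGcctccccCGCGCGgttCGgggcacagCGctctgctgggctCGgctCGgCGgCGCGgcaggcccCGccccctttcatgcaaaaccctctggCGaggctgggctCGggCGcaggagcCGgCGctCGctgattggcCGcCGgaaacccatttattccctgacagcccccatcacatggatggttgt
Kdm5b: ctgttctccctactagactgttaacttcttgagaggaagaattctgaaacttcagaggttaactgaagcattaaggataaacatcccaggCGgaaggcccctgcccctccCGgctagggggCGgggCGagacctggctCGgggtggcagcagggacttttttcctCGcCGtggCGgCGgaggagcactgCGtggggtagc
Pou5f1: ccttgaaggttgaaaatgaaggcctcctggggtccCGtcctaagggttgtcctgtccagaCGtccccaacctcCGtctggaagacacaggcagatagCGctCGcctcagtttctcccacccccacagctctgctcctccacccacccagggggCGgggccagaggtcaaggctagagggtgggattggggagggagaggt
Nanog: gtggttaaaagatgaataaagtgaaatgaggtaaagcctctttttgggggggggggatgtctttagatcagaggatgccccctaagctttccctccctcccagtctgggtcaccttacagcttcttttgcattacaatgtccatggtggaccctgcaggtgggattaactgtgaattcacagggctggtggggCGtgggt
Hprt: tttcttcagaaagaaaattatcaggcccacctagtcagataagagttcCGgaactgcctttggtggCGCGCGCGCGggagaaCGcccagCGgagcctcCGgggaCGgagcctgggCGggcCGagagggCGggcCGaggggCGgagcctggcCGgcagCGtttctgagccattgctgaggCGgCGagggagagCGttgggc
Afp: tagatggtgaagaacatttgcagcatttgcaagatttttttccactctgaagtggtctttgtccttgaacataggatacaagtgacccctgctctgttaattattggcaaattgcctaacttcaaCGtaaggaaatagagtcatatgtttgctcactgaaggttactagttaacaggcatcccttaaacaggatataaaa
Olfr1014: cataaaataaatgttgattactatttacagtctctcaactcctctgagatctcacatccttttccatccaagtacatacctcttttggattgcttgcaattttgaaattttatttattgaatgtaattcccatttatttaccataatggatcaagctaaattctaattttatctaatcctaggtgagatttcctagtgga
These stretches hold 16 CG dinucleotides at Rps12, 22 at Sox2, 10 at Kdm5b, 6 at Pou5f1, 1 at Nanog, 20 at Hprt, 1 at Afp and 0 at Olfr1014. The full windows held 435 reads at Rps12, 239 at Sox2, 153 at Kdm5b, 401 at Pou5f1, 239 at Nanog, and 0 at Hprt, Afp and Olfr1014. Sox2 and Nanog thus had the same count with 22 and 1 CG in these bases, and Hprt had none with 20.

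H3K4me3 levels fell into a marked and an unmarked class with fewer promoters between them. Of 22367 promoters, 13429 were enriched (60%, Wilson interval 59.4 to 60.7), with a median of 17.6 RPM and quartiles of 8.53 and 28.5 RPM. The 8938 promoters that were not enriched had a median of 0.582 RPM, or 3 reads. Between 1 and 4 RPM lay 1371 promoters from 1 to under 2 RPM and 1377 from 2 to under 4 RPM, whereas 7382 lay under 1 RPM and 4704 from 16 to under 32 RPM. A further 1926 lay from 4 to under 8 RPM. None of the 7382 promoters under 1 RPM was enriched, and 4701 of the 4704 from 16 to under 32 RPM were. The former was set by the test. Its background was never under 4.03 reads, and the fewest reads at an enriched promoter were 9. The typical enriched promoter held 91 reads, for which the Poisson interval is 73.3 to 112 reads, and stood 13.1-fold above its background. Of the 13429 enriched promoters, 4981 lay within 1.5 times the median in either direction. The 10th percentile was 3.88 RPM and the 99th was 61.3 RPM.

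**Figure D1:**
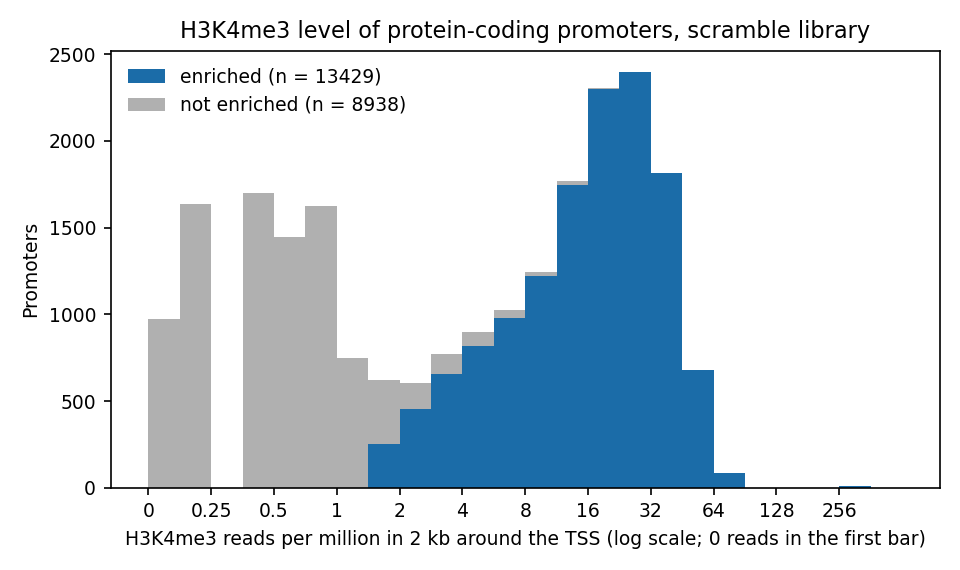
Number of protein-coding promoters (y axis) by H3K4me3 level in the scramble library (x axis, RPM in the window, log scale, 0 reads in the first bar), with the 13429 enriched promoters in blue and the 8938 not enriched stacked above them in grey. Enriched promoters form a peak around the median of 17.6 RPM, and promoters not enriched form a second peak under 1 RPM, where the step from 1 read to 2 leaves an empty bar.

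Promoter windows covered 1.65% of the genome and held 24.2% of the reads kept. The 2236 promoters of the top decile, all at 33.7 RPM or more, held 36.6% of the reads in promoter windows, and the upper 5 deciles held 94.8%. At the threshold of the call, Mylk (14 reads over a background of 7.8, adjusted p = 0.0477 by the exact Poisson test) was inside and Nfkbib (19 reads over a background of 11.7, adjusted p = 0.0505) was outside. Lzts2 also lay just inside with 54 reads, because its local background was 40.9 reads. Some windows well above the genome rate were therefore not called where the reads around them were also many. Sall4, a zinc finger partner of Pou5f1, held 76 reads in its window over a local background of 64.7 and was not enriched there, but the window at another annotated start 2697 bases into the gene held 223 reads and was. Setd1b, a catalytic subunit of a SET1 methyltransferase complex, likewise held 80 reads over a background of 70.1, and Socs3, the feedback inhibitor of LIF signalling, held 60 over 56.8. Socs3 was enriched at another annotated start 861 bases into the gene (194 reads), and its gene-level window was called with 500 bases or 2 kb on each side, while Setd1b was enriched at no annotated start.

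The places with the most reads in the ranking were not ordinary promoters. The first 11 were windows of predicted Gm genes, 9 on chromosome 9 and 2 on chromosome 2, with 1095 to 2077 reads each. Gm10722 had 2077 reads with 17.4% of its words unique and 792 reads expected from its local background. Gm10719, with 1610 reads over a background of 1605, was not enriched, though it was called with repeats kept. Next came Sfi1, a gene for a centrosomal protein, with 682 reads (132 RPM). Its words were 96.2% unique, and 34.2% of its reads lay in 200 bases. Of the places that followed, Phf10, 9030025P20Rik with Gm3417, and Gm3448 with Gm3435 on chromosome 17 had 450, 415 and 415 reads and almost no unique word (0%, 1.42% and 0%). With only reads whose 34-base word occurs once, Phf10 held 0 reads, 9030025P20Rik 7 and Gm3448 0, so the rank of these places rests on reads placed at one of several matching positions.

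Below these, ribosomal protein genes and Pou5f1 led the mostly unique promoters. Rps12, a protein of the small ribosomal subunit, held 435 reads (84.3 RPM, interval 76.6 to 92.6). The shared window of Nip7 and Cog8 held 414 reads, that of Rpl7a and Med22 held 413, and Pou5f1, the transcription factor Oct4 that defines pluripotency, held 401 reads (77.7 RPM, interval 70.3 to 85.7). Ahsa1, which activates the Hsp90 ATPase, and Phb2, a mitochondrial prohibitin, held 398 each. Their windows overlapped those of Vipar and Emg1, in that order. Gnb2l1, the ribosomal scaffold Rack1, and Sphk2, a sphingosine kinase, held 393 each, but only 24.7% of the reads at Sphk2 lay downstream of its TSS. Further down stood Rpl27a with 384 reads, Ncl (nucleolin) and Pkm2 (pyruvate kinase) with 376 each, and Hspa5, the chaperone BiP of the endoplasmic reticulum, with 369. From Rps12 to Hspa5 the counts went from 435 to 369 reads, and the intervals of neighbours in this order overlap, so the order among them is not resolved by these counts. Of the first 30 mostly unique places, at least 13 were windows that overlapped that of another coding gene, such as Eef1b2 with Ndufs1 and Aurka with Cstf1. Partners with fewer reads than the ranking reached were not counted.

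H3K4me3 lay mostly downstream of the TSS. At enriched promoters the median share of reads on the downstream side was 78.3% (quartiles 60% and 90.5%). Of 12371 promoters with at least 20 reads, 8319 (67.2%) had at least 2-fold more reads downstream than upstream with a Clopper-Pearson interval that excluded an even split, 656 (5.3%) had the opposite, and 3396 (27.5%) had neither. The median share at enriched promoters was alike for genes on both strands, 78.3% for plus and 78.2% for minus. Counted at each gene's annotated start with the most reads, it was 72.7%, with 7607 promoters called downstream and 983 upstream. In the mean profile of 10468 enriched, mostly unique promoters with no other coding start within 2 kb, read density was lowest 75 bases before the TSS, at 18.6 reads per kb. It was highest 175 bases after it, at 113 reads per kb, which is 32-fold over the flank of 3.53 reads per kb. A second, lower crest stood 225 bases upstream at 36.2 reads per kb. The downstream crest stayed above 50% of its height from 75 to 675 bases after the TSS.

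**Figure D2:**
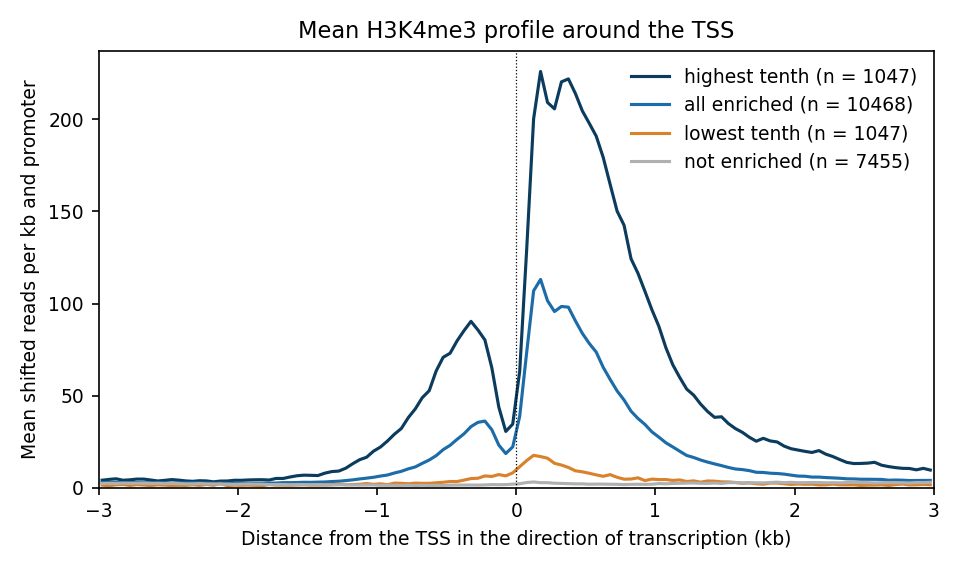
Mean number of shifted reads per kb and promoter (y axis) by distance from the TSS in the direction of transcription (x axis, kb), for mostly unique promoters without another coding start within 2 kb: all enriched (n = 10468), the highest and lowest decile of them by level (n = 1047 each) and promoters not enriched (n = 7455). The enriched promoters show a dip 75 bases before the TSS, a crest of 113 reads per kb 175 bases after it and a lower upstream crest of 36.2 reads per kb.

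The shape differed between levels. A level is the read sum of the window, so a signal that is wider or on both sides raises it by construction. The part of this in the differences below was not tested. In the highest decile of these promoters (median 40.5 RPM) the upstream crest stood 325 bases before the TSS and was 2.95-fold higher than the dip, and the downstream crest reached to 875 bases. In the fifth decile (median 17.3 RPM) the upstream crest was 1.77-fold higher than the dip and the downstream crest reached to 625 bases. In the lowest decile (median 2.52 RPM) the upstream crest was 1.05-fold higher than the lowest point and the downstream crest reached to 425 bases. The downstream share was 77.9% in the first decile, 85.9% in the sixth and 73.3% in the last, where counts are fewest. Promoters that were not enriched had a crest of 3.19 reads per kb over a flank of 2.61.

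A coding gene that starts in the opposite direction nearby went with an even split. Among promoters with at least 20 reads, the 1508 with a divergent coding start within 1 kb upstream had a median downstream share of 50.1% (interval of the median 49 to 51.7), and 18.8% of them were called downstream and 20.4% upstream. The 9684 promoters with no other coding start within 2 kb had a median of 82.7% (82.3 to 83.2), and 76.3% were called downstream and 2.60% upstream. The same 1508 windows had a median level of 34.1 RPM against 17.1 RPM for the 9684. A window with a divergent partner takes in the downstream side of that partner by construction. Of the 656 promoters called upstream, 404 had another coding start within 2 kb and 308 a divergent one.

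**Figure D3:**
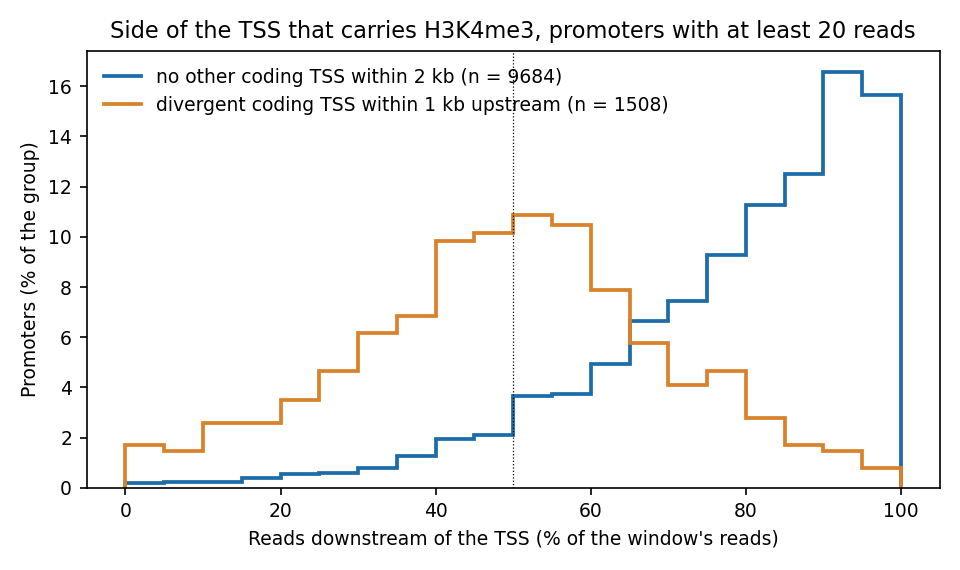
Share of promoters in each group (y axis, %) by the percentage of a window's reads that lay downstream of the TSS (x axis), for promoters with at least 20 reads. Promoters with no other coding start within 2 kb (n = 9684) pile up towards 100% with a median of 82.7%, and those with a divergent coding start within 1 kb upstream (n = 1508) centre on 50.1%.

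The extremes followed the same arrangement. Among 6102 enriched promoters with at least 100 reads, 758 had over 95% of their reads downstream, 9 had under 5%, 22 had no upstream read and 0 had no downstream read. The most downstream were D10Wsu52e, also known as the RNA ligase Rtcb (167 of 167 reads), Dnm2, the GTPase dynamin 2 (166 of 166), Pdrg1 (158 of 158), Otud6b (157 of 157), Kctd5 and Snap47 (152 of 152 each), Lap3 (145 of 145) and Hbs1l (144 of 144). For 7 of these 8 the nearest other coding start was 13071 bases away or more, and for Snap47 it was that of Jmjd4, 1141 bases downstream. At the other end stood 4933430I17Rik with 2 of 208 reads downstream, Serinc4 with 3 of 167, Gm17658 with 2 of 107 and Dram1 with 2 of 105. Psmc2, an ATPase of the proteasome base, had 4 of 202 reads downstream, Trpm8, the cold-sensing ion channel of sensory neurons, 8 of 327, Dbil5 6 of 146 and Morn5 5 of 108.

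In 7 of these 8 promoters with the mark upstream, an oppositely directed coding gene started close by. Most reads in that partner's window lay on the partner's own downstream side. The windows of each pair overlap and count many of the same reads, and the 8 promoters were picked for a low downstream share. A high share in the partner's window thus largely follows from that choice and is not a separate measurement. Trpm8 started 28 bases from Hjurp, the chaperone that loads the centromeric histone, whose window held 332 reads with 97.6% downstream. Psmc2 started 32 bases from the cochaperone gene Dnajc2, at 98.5% downstream. Dram1, a p53 target of autophagy, started 52 bases from Gnptab (97.2%), and Morn5 52 bases from the respiratory chain gene Ndufa8 (94.5%). Gm17658 started 136 bases from the histone gene Hist1h4d (93.6%), and 4933430I17Rik a little farther from the DNA polymerase epsilon subunit gene Pole3 (66.2%). Dbil5 and Gemin4 (95.8%) started 56 bases apart and overlapped. The window of Trpm8 was thus at 63.4 RPM, with nearly all of its reads on the side of Hjurp. Serinc4 was the exception by gene-level starts, since the nearest, that of 2310003F16Rik on the opposite strand, was 3491 bases away and held 9 reads. Another annotated start of 2310003F16Rik held 183 reads. Kdm5b, the demethylase gene itself, had 153 reads (29.7 RPM, interval 25.1 to 34.8, rank 3073) with 98.7% downstream.

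Marked and unmarked promoters differed in their number of CG dinucleotides. Windows with 0 to 10 CG were enriched in 0.948% of 2216 cases, windows with 41 to 60 CG in 73.7% of 2439 and windows with 151 to 311 CG in 99.1% of 1273. Classed by the window, 6564 of 6666 CpG-rich promoters (98.5%), 5385 of 5891 intermediate promoters (91.4%) and 1480 of 9810 CpG-poor promoters (15.1%) were enriched. CpG-rich here means a CG count of at least 0.6 of that predicted from base content and at least 50% GC, and CpG-poor means under 0.4. At the upper end the level no longer moved much: the median was 20.2 RPM with 81 to 100 CG and 21.5 RPM with 151 to 311. Across the 20934 mostly unique promoters Spearman's rho of level with CG number was 0.782, and across the 13147 enriched ones 0.336. These are correlations across promoters of 1 library, which share its depth and its base composition. Background reads outside promoters also varied with base composition, from 0.487 reads per kb at up to 35% GC to 2.31 above 60% GC, and the part of this in the levels was not tested.

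**Figure D4:**
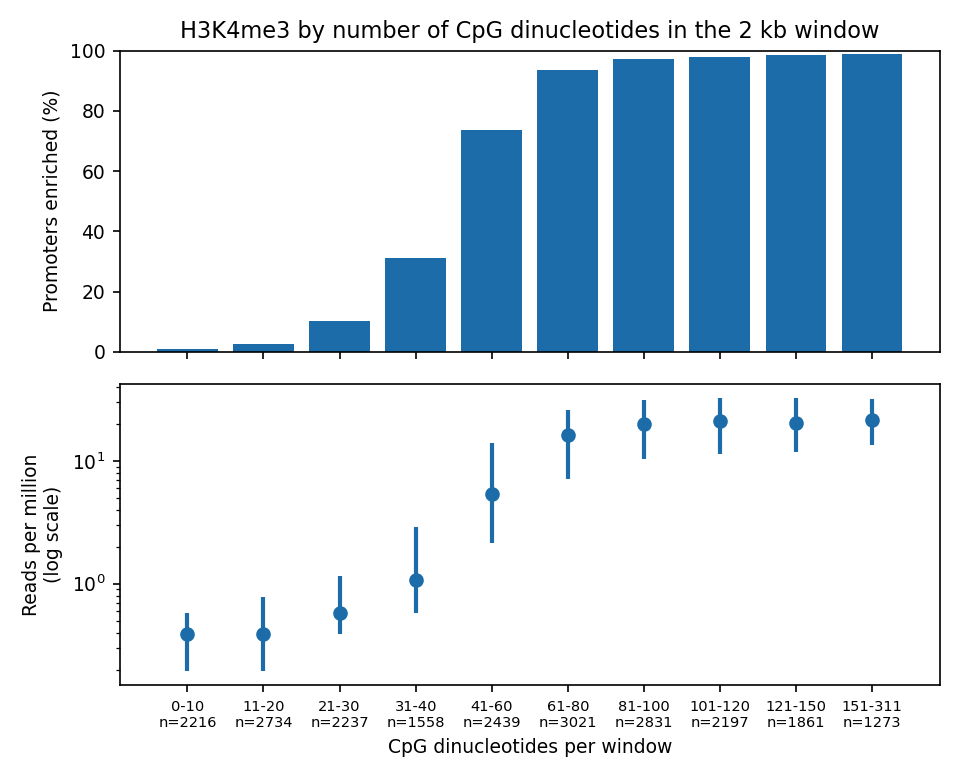
Upper panel: share of promoters enriched for H3K4me3 (y axis, %) by the number of CG dinucleotides in the window (x axis, with the number of promoters). Lower panel: median level (points) and quartiles (lines) in RPM on a log scale; the share enriched goes from 0.948% to 99.1%, and the median stays between 16.3 and 21.5 RPM from 61 CG upwards.

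By CpG class, some promoters went against this in each direction. By CG number, being enriched was usual from 41 to 60 CG, at 73.7% of windows. Pou5f1 was the CpG-poor promoter with the most reads, with 401 reads and 44 CG. Cbx7, a Polycomb chromobox gene, held 323 reads (62.6 RPM) with 49 CG, Ifitm2, an interferon-induced membrane protein gene, 291 reads with 38 CG, and the cysteinyl-tRNA synthetase gene Cars 271 reads with 52 CG. Apobec3, a cytidine deaminase gene, held 249 reads with 50 CG, and Nanog 239 reads with 34 CG. These genes were listed after their values were seen, as the CpG-poor promoters with the most reads in windows of over 80% unique words. In the other direction, 102 CpG-rich promoters were not enriched. Of these, 25 were enriched at another annotated start, 23 held at least 20 reads, and 75 were mostly unique and enriched at no annotated start. Among the latter 75, 45 held under 10 reads. The examples that follow are genes of transcriptional regulators picked from the 45 after their values were seen. Uncx and Skor2 held 1 read each, Dbx1 and Ebf2 2 each, Hoxc9 3, and Hoxa11, Lmx1b and Onecut3 4 each. Pou3f3, a neural POU factor with 227 CG in its window, held 7 reads, as did Msx1 and Pax7.

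5 short motifs were counted in the 250 bases before each TSS, on either strand, as descriptions and not as sites. CCGGAAG, the core recognised by ETS factors such as GABPA, was in 23.7% of the 2093 promoters of the top decile of mostly unique windows, in 12.5% of enriched promoters, in 1.81% of those not enriched and in 8.22% of all. The palindromic NRF1 motif was in 2.20% of the top decile, 1.45% of enriched, 0.0559% of not enriched and 0.894% of all promoters. GGGCGG, the GC box bound by Sp1, was in 61.4%, 59.4%, 9.81% and 39.6% in the same order. TATAAA, the TATA box, ran the other way, with 4.44%, 6.03%, 21.8% and 12.3%. CCAAT, the NF-Y box, was nearly even, with 37.5%, 35.3%, 34.4% and 35%. The motifs share letters with CpG content, which differed between these classes: the median was 90 CG per window at enriched and 19 at not enriched promoters.

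The gene lists separated by level, as the plot of gene groups shows. The median of all 22367 promoters was 6.01 RPM with 60% enriched, and each list is read beside these. A level is a sum over the window, so list medians also moved with its width. The cytosolic ribosomal protein genes had the highest median, 51.0 RPM, with 72 of 76 enriched. Cell cycle genes followed at 33.5 RPM with 31 of 31, respiratory chain genes at 32.8 RPM with 77 of 83, translation factors at 32.4 RPM with 62 of 67, the proteasome at 31.6 RPM with 46 of 50 and mitochondrial ribosomal proteins at 31.2 RPM with 75 of 76. Among cell cycle genes the mitotic kinase Aurka (360 reads) and the replicative helicase subunits Mcm4 (351) and Mcm5 (273) were highest, and the cyclins Ccnd2 (50) and Ccnd3 (42, not called with 2 kb on each side) lowest. Among the others, the translation elongation factor Eef2 held 330 reads, the proteasome subunit Psmc5 362 and the complex II subunit Sdhd 345.

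**Figure D5:**
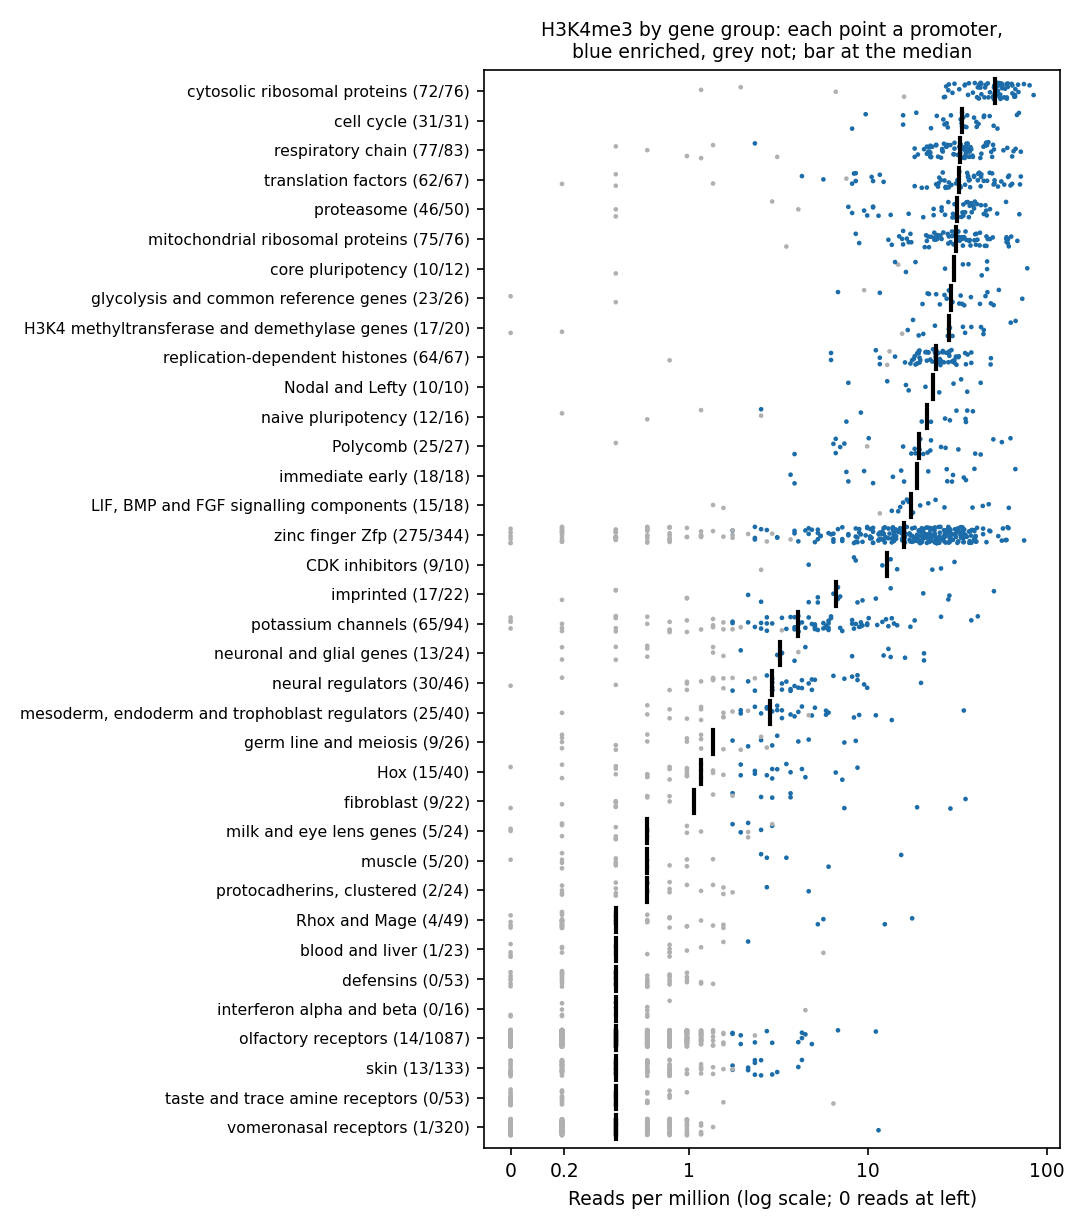
H3K4me3 level (x axis, RPM, log scale, 0 reads at the left) of each promoter (points, blue if enriched and grey if not) in 36 gene groups (y axis, with the number enriched of the number annotated), ordered by their median (black bar). Ribosomal protein genes stand at the top with a median of 51.0 RPM, regulators of development lie between 1.16 and 2.91 RPM, and receptor families at the bottom at 0.388 RPM.

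Of the members of these lists that were not enriched, some were enriched at another annotated start: 4 of 4 cytosolic ribosomal protein genes, 1 of 1 mitochondrial, 2 of 4 proteasome, 2 of 5 translation factor and 0 of 6 respiratory chain genes. Rpl13a had 6 reads at its gene-level TSS and 549 at another annotated start 8594 bases into the gene. Rps10 had 10 and 422 reads, 2375 bases apart, and the lactate dehydrogenase gene Ldha 2 and 358, 4622 bases apart. The proteasome genes Psma6 and Psmf1 had 2 reads each at the gene-level TSS and 201 and 150 at another start, the translation factor Eif4g1 2 and 187, and Dpy30, a core subunit of all SET1 and MLL complexes, 0 and 188. By contrast, the tissue-specific paralogs Cox6a2, of muscle, with 3 reads, and Cox7b2, with 2, were not enriched at any annotated start. In all, 813 of the 8938 genes not enriched at the gene-level TSS were enriched at another annotated start, out of 3385 that had more than 1. This left 8125 genes (36.3%) enriched at none.

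Pluripotency genes were marked strongly. The core list had a median of 30.4 RPM. After Pou5f1 (77.7 RPM) came Nanog and Sox2 with 239 reads each (46.3 RPM, interval 40.6 to 52.6), Utf1 with 223, Trim28, the KAP1 corepressor, with 188, and Lin28a, an inhibitor of let-7 processing, with 175. Dppa2 and Dppa4, paired germ-cell and early-embryo genes, had 84 and 73 reads. Sox2 had 54.4% of its reads downstream, and Nanog 84.5% and Utf1 97.3%. Both core members that were not enriched at the gene-level TSS, Sall4 among them, were enriched at another annotated start. In the naive list (median 21.2 RPM) Fgf4 held 199 reads, Klf2 185, Tet2 182, Stat3, the factor downstream of LIF, 181, Klf4 161 and Klf5 148. Esrrb had 3 reads at the gene-level TSS and 291 (56.4 RPM) at a start 109000 bases into the gene, and Nr5a2 had 1 and 120, 6797 bases apart. Tet1 had 13 reads and 28 at another start, and Gbx2, with 6 reads over a background of 39.2, was enriched at none. Dppa3 (Stella) was low, with 13 reads.

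Genes of signalling pathways that act on the undifferentiated state, some to hold it and some to end it, were marked as well. All 10 Nodal pathway genes were enriched (median 23.0 RPM), led by the coreceptor Tdgf1 (220 reads), the ligands Gdf3 (185) and Nodal (171), while the inhibitors Lefty1 and Lefty2 held 66 and 40. Of 18 promoters of LIF, BMP and FGF signalling, 15 were enriched (median 17.4 RPM). The FGF feedback inhibitors Spry4 (316 reads), Spry2 (244) and Dusp6 (226) were highest, and the receptor gene Fgfr1 and Il6st, the LIF coreceptor gp130, lowest with 7 and 8 reads. Fgfr1 was enriched at another annotated start with 98 reads, and Il6st at none. All 18 immediate early genes were enriched (median 18.8 RPM), from Ier2 with 344 reads, Dusp1 with 203 and Mycn with 182 to Egr2 with 20 and Egr3 with 19.

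The enzymes of H3K4 methylation carried the mark themselves: 17 of 20 were enriched, with a median of 28.5 RPM. Wdr5, the common core subunit, held 345 reads (66.9 RPM). Of the methyltransferase genes, Mll3 held 195 reads, Setd1a 180, Mll2 146, Mll1 144, and Wbp7 229, and the MLL-related Mll5 held 324. Cxxc1, the CpG-binding subunit of the SET1 complex, held 148. Among the KDM5 demethylases Kdm5a held 228, Kdm5b 153 and Kdm5c 122, while Kdm5d on the Y chromosome held 1 in a window without a unique word. Of the 3 not enriched, Dpy30 was enriched at another start and Setd1b stood over a high local background. Polycomb genes had 25 of 27 enriched and a median of 19.4 RPM, with Cbx7 (323 reads) and Eed (289) highest. Suz12 held 165 and the methyltransferase gene Ezh2 132. Histone genes had 64 of 67 enriched (median 23.8 RPM). The median was 12.6 RPM when only reads with a unique word were counted and RPM was scaled to their total. On that scale an unchanged count gives a higher RPM. Of the highest, Hist2h3c1 and Hist2h2aa1 had 251 and 250 reads in windows with 40.7% and 41.5% unique words, so reads may be shared with near-identical copies, and the testis-specific linker histone Hist1h1t had 4 and was not enriched.

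Enriched regulators of development stood at lower levels than enriched promoters as a whole. Neural regulators had 30 of 46 enriched with a median of 2.91 RPM, and those of the mesoderm, endoderm and trophoblast list 25 of 40 with a median of 2.81 RPM. Their shares enriched, 65.2% and 62.5%, lay near the 60% of all promoters, while their medians over enriched members, 3.97 and 3.88 RPM, lay under the 17.6 RPM of all enriched promoters. Pou4f1, a factor of sensory neurons, was the highest neural regulator with 102 reads, followed by Isl1 with 51 and Olig1 with 49. Neurod1 held 24, Neurog1 18 and Lhx3 0. Pax6 and Otx2 had 8 and 7 reads at the gene-level TSS, but 102 and 109 at another annotated start 7050 and 5712 bases into the gene. Of the other list, Tcf15, a helix-loop-helix factor of the paraxial mesoderm, stood apart with 177 reads (34.3 RPM), ahead of Tcfap2c with 70 and Twist1 with 57. Eomes held 30, Gata6 21, Cdx2 17, Sox17 11 and Foxa2 8. Isl1 had only 27.5% of its reads downstream.

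Hox genes, which pattern the body axis, were the least marked of the developmental lists, with 15 of 40 enriched and a median of 1.16 RPM although the median window held 78.5 CG. Hoxc13 (37 reads) and Hoxd1 (34) were among the highest, Hoxd4 held 1 read and Hoxb6 held 0. None of the 40 reached the 17.6 RPM median of enriched promoters. Of the 25 not enriched, 3 were enriched at another start, among them Hoxa10 with 10 reads there. Clustered protocadherins had 2 of 24 enriched, led by Pcdhgc5 with 24 reads. With 2 kb on each side the Pcdhgc5 call was lost, that of Pcdhb2 was gained, and the list median was 3.78 RPM in place of 0.582. Potassium channel genes (65 of 94 enriched, median 4.07 RPM) ranged from Kcnk5 with 212 reads to Kcnj13, Kcnj16 and Kcnk16 with 0. Neuronal and glial genes (13 of 24, median 3.20 RPM) ranged from the neurofilament genes Nefh and Nefl with 106 reads each to Dcx with 1.

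Imprinted genes lay between (17 of 22 enriched, median 6.59 RPM). Zrsr1 held 261 reads with 22.6% downstream, Impact 147 and Mkrn3 145 with 98.0% and 96.6% downstream. Snrpn had 2 reads at its gene-level TSS and 89 at a start 135063 bases into the gene, while Mest had 1 and was enriched at none. Of 10 cell cycle inhibitors 9 were enriched (median 12.7 RPM), Cdkn1b with 157 reads and Cdkn1c, also imprinted, with 24. The p21 gene Cdkn1a had 13 reads at the gene-level TSS and 123 at a start 2793 bases into the gene. Zinc finger genes named Zfp had 275 of 344 enriched and a median of 15.9 RPM, among them Zfp42 (Rex1), a stem cell marker, with 116 reads. Zfp960, at the head of this list with 385 reads, kept 167 when only unique words were counted, and Zfp97 had 315 reads in a window with 0.305% unique words.

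Genes of other tissues were mostly unmarked at the gene-level TSS, with exceptions. In the blood and liver list (median 0.388 RPM) the one enriched promoter was that of the T cell gene Cd3e with 11 reads, which was not called with 2 kb on each side, and Afp, Fgb, Cyp2e1 and Serpina1a, all liver genes, had 0. Apob, with 8 reads, was called with repeats kept and with unique-word reads only. Klf1, the erythroid factor, held 29 reads over a local background of 34.4 and was not enriched. Muscle genes (5 of 20 enriched) were led by Actn3 with 79 reads, of which 17.7% were downstream, beside a divergent coding start, and by the calcium channel gene Ryr1 with 31, while the myosin gene Myh2 had 0. Skin genes (13 of 133) were led by the simple epithelial keratin Krt18 with 22 reads, and 14 of them had 0. The fibroblast list (9 of 22, with a median of 1.07 RPM, or 2.62 at the start with the most reads) had higher exceptions in Vim (181 reads, 35.1 RPM), Fn1 (149) and Col5a1 (97), genes of the cytoskeleton and matrix, whereas Acta2 had 1 and Lum 0. Of its 13 members not enriched, 4 were enriched at another annotated start: Fbn1 with 56 reads there, Pdgfra with 44, Col1a1 with 15 and Col1a2 with 12. Germ line and meiosis genes (9 of 26, median 1.36 RPM) were led by the synaptonemal gene Sycp3 with 44 reads and the recombinase Dmc1 with 38, and the egg coat genes Zp1 and Zp2 had 1 each. In the list of milk and eye lens genes, the caseins Csn2 and Csn1s2a had 0.

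The large receptor and defence families were almost wholly unmarked, in windows with few CG. Their lists had medians of 8 to 13 CG per window. Over all promoters, these families included, windows with 0 to 10 CG were enriched in 0.948% of cases and those with 11 to 20 in 2.56%. A lack of the mark beyond CG content was not tested. Of 1087 olfactory receptor genes 14 were enriched (1.29%) and 164 had 0 reads, and of 320 vomeronasal receptor genes 1 was enriched (0.313%) and 68 had 0. No taste or trace amine receptor (0 of 53), defensin (0 of 53) or interferon alpha and beta gene (0 of 16) was enriched by the Poisson test, and each of these lists had a median of 0.388 RPM. Other settings called single members. These were Tas1r1 with 2 kb on each side, Tas1r2 with unique-word reads only, Defb30 with 500 bases on each side and Vmn1r58 with repeats kept. The promoters with more reads were those of single genes. Olfr94 held 57 reads (11.1 RPM, 93.0% downstream) in a window with 85 CG, Olfr1344 held 35, and Vmn1r90 59 in a window with 182 CG and 54.9% unique words. Tas1r1, the umami receptor gene, held 33 reads, of which 6.06% were downstream, over a background of 34.9, with a divergent coding start nearby. These genes lie in clusters, and the unmarked promoters formed long runs. The longest was 227 consecutive coding genes on chromosome 2 with TSSs from 84976517 to 90122730 (mm9), of which 221 were olfactory receptors, with a highest level of 1.36 RPM. Further runs were 109 genes on chromosome 7 with 64 vomeronasal receptors, and 91 on chromosome 7 with 80 olfactory receptors. The longest run of enriched promoters was 32 genes on chromosome 5, from Hip1r to Aacs, with a median of 27.7 RPM.

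The X chromosome stood apart in level and background. On the autosomes 47.1% (chromosome 7) to 72.9% (chromosome 12) of promoters were enriched, with medians of 15.1 to 20.2 RPM over the enriched ones. On X 418 of 932 (44.8%) were enriched, a share whose interval overlapped that of chromosome 7, with a median of 9.50 RPM, and on Y 3 of 17. Background density on X, outside promoters, was 0.340 reads per kb, 0.370 of the autosomal median, so level and background were both lower there. The call used at least the genome rate of 4.03 reads per window on every chromosome. That rate lies farther above the background of X than above the autosomal background of 1.83 reads per 2 kb. Promoters on X thus met a stricter test relative to their background, and its effect on the share enriched was not tested. E14TG2a is, as background, a male line with 1 X chromosome. Base composition also differs between chromosomes, and its part was not tested. X also held 121 of the 971 promoters with 0 reads.

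Most windows without a read were CpG-poor. In all 971 promoters (4.34%) had 0 reads, a count that was 2497 with 500 bases on each side, 220 with 2 kb and 2117 with unique-word reads only. Of the 971, 806 were in mostly unique windows and 165 in others where reads may be placed elsewhere. Of the 971, 953 were CpG-poor, 17 intermediate and 1 CpG-rich. With a genome rate of 4.03 reads per window, 0 reads does not set a promoter below the background by itself. The single CpG-rich promoter was that of Hprt, the purine salvage gene on the X chromosome (TSS at 50341314, plus strand, mm9), which is widely used as a reference gene. Its window had 93 CG and 96.6% unique words, and no annotated start of Hprt had a read in its window. E14TG2a is known as an Hprt-deficient line that was selected in thioguanine. Reads with a unique word were missing from a stretch of 24.2 kb, from 10510 bases before the TSS to 13649 bases after it, which held 5 reads with other words. At the background density of X, which counts reads of any word, such a stretch would hold 8.22 reads. The stretch was defined by its lack of unique-word reads, and its 5 reads may belong to matching positions elsewhere. The counts 8.22 and 5 are thus not of the same kind. Counting reads of any word, the read-free stretch around the TSS was 9.37 kb, where that density would give 3.19 reads. Longer read-free stretches held other coding starts on X, such as 21.6 kb at the CpG-poor promoter of Glra2. The neighbouring promoters of Phf6 (43 reads), Gpc3 (72), Fam122b (61) and Mospd1 (57) were enriched. Whether the DNA of the Hprt promoter is present in these cells was not tested.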

How the data were processed

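The members and gene lists were chosen with earlier results of these data known. Each row of the deposited file places 1 aligned read by its coordinates and strand, with a score that is 0 throughout the deposited file. Per the labels and the submitters' processing notes, alignment was to mm9 by Bowtie (version not given in the sources used here), and later steps kept 1 match per position, called peaks with MACS and normalized to IgG. The deposited rows precede those steps: 31.5% repeat a position, and no peak or IgG library was used here. All 21 chromosomes end within the NCBIM37 lengths.

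From the rows, 1 read was kept per strand and 5′ position, shifted 75 bases towards the fragment centre (the plus and minus strand reads were offset by a fragment peak of 116 bases) and counted in windows around the gene-level TSS of GENCODE vM1. At 5158330 reads kept, 1 read is 0.194 RPM. Of the reads kept, 80.2% had a 34-base word that occurs once in the genome. These lay on the plus strand in 50.0% of cases and the others in 68.7%, so reads with several matches are in the file. Intervals of levels (exact Poisson) and sides (Clopper-Pearson) cover the counting error of reads only. Wilson intervals of shares are over promoters. Medians carry order-statistic intervals over promoters, not over replicates. Calls were tested on simulated data. Python 3.11.15, numpy 2.4.6, pandas 2.3.3, scipy 1.17.1 and samtools 1.23.1 were used.

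Named genes were Kdm5b, the 20 promoters with the most reads (those of mostly unique windows were added after seeing the data), the 8 most and 8 least downstream of the enriched with at least 100 reads, the 3 highest and 2 lowest of each list with members at 0 reads, and genes nearest the threshold. Other genes named were chosen after their values were seen. Symbols shared by several genes were not named, and some genes the rule selects are not reported here. Alternatives covered repeats, shift, window, start, threshold, background and word uniqueness.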

Additional observations from a re-analysis of the deposited data

How the results depend on the processing

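No paired analysis was possible because the scramble H3K4me3 library is 1 sample whose label carries no replicate number, and no library could be left out. The number of enriched promoters stayed between 12736 (threshold of 0.001) and 14238 (annotated start with the most reads) over all alternatives, and at least 95.3% of the 13429 calls were shared in the 6 alternatives where this was counted. The promoters with 0 reads were 2497 with 500 bases on each side, 220 with 2 kb and 2117 with unique-word reads only. The median level of enriched promoters was 15.3 RPM with repeats kept, 11.6 with 500 bases and 20.7 with 2 kb. It was 18.0 at the start with the most reads and 21.8 with unique-word reads only. RPM is scaled to the reads each setting keeps, so Sfi1, with 682 unique-word reads, went from 132 to 165 RPM without a change in count. The top decile held 46.3% of promoter reads with repeats kept, 35.7% with 500 bases, 37.6% with 2 kb, 35.4% at the start with the most reads, 36.4% with unique-word reads and 34.5% in mostly unique windows. The median downstream share was 77.2% with repeats kept, 77.2% without the shift, 76.2% with 500 bases, 72.7% at the start with the most reads and 81.8% with no other coding start within 2 kb. Downstream calls went from 6542 to 9010 and upstream calls from 481 to 983, each within 1.5 times the reported number. Of 36 list medians, 19 moved beyond their interval with 500 bases and 20 with 2 kb, where all levels are lower or higher. Unique-word reads, and mostly unique windows for the counts and the top decile, were alternatives chosen after seeing the data. Among 251 named promoters, unique-word reads removed 10 calls (Phf10, 9030025P20Rik, Gm3448, Zfp97, Gm10106, Gm10721, Gm11167, Gm17535, Crygc and Hist2h2aa2). A window of 2 kb on each side removed 6 (Ccnd3, Cd3e, Crygc, Gm10721, Gm17658 and Pcdhgc5), one of 500 bases removed 2 (Cryab and Olfr179), and the start with the most reads added 17. Calls were also added by 2 kb (Pcdhb2, Rps10, Socs3 and Tas1r1) and by 500 bases (Crygn, Defb30 and Socs3). Unique-word reads added Apob and Tas1r2, and repeats kept added Apob, Gm10719 and Vmn1r58. The cause was not tested. At 5158330 reads, levels under 0.582 RPM cannot be told from 0, and differences inside the counting intervals are not resolved.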
